A study of Solanum lycopersicum with 21 samples.

Results

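The members are 100 tomato leaf genes whose mean level in wild-type plants moved in 1 direction at both steps of a repeated drought, from irrigation to the first recovery and from the first to the second recovery. They were selected on these wild-type levels alone. The levels are CPM, the reads of a gene as a share of all reads counted in its library, scaled up by a constant. From 33925 tomato loci in the table, 13385 had a mean of at least 5 CPM over the 21 libraries, and 5755 of these had wild-type steps of the same sign. Each step was a log2 ratio of group means after adding 0.5 CPM, and the 100 loci with the largest smaller step were taken. Of the members, 78 rose and 22 fell. With library sizes scaled by TMM, a correction for unequal composition of the libraries, the same rule took 55 rising and 45 falling loci, 75 of them shared with the list described here. The wild-type steps chose the members, so their wild-type values are a description and carry no test.

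All plants were of the cultivar M82 and 3 weeks old per the labels, and the RNA came from fully expanded leaves. The 7 groups of 3 libraries were, first, line 6936, silenced for CCD7, an enzyme that cleaves carotenoids on the way to strigolactones, under irrigation, after recovery from 1 drought and after recovery from 2 droughts. The others were wild-type leaves sprayed with 5 µM of the strigolactone analogue GR24 5DS 24 h before sampling, and unsprayed wild type under irrigation, after recovery 1 and after recovery 2. The strigolactone content of line 6936, as labelled, is lower by 70 to 80% in exudates and root tissue, with no value for leaves. Line 6936 is a single line, and all recovery plants of both genotypes had been watered again before sampling. Irrigated plants carry the time label 0, the recoveries the labels 31 and 76 and the sprayed plants the label 24, all without a unit, so that drought history and sampling time cannot be told apart. Each replicate held at least 3 leaves of different plants, and the labels name 5 plants, so replicates may share plants and the p-values measure only the spread between these libraries.

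Strigolactones are hormones made from carotenoids that act in shoot branching, in root symbiosis and in the leaf's response to water shortage. Plants that have met drought and recovered can carry altered transcript levels into a later drought, a behaviour often called drought memory. A level that moves again in the same direction at a second recovery is 1 form such a record could take. No source used here pairs these loci with gene names, so members are given by locus ID, at most 4 for each comparison, with no statement on what they encode; for the same reason neither leaf marker genes nor the silenced gene were checked. The chromosome of a locus is the number after the prefix of its ID.

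Library totals ran from 19267602 to 35433511 counts, so that 1 count was worth 0.0282 to 0.0519 CPM. Replicate 9 of wild-type recovery 2 stood apart in the members: it was over 4 times the mean of the other 2 libraries of its group in 29 of the 78 rising members, against 44 of all 13385 genes over the minimum. The rule used replicate 9, which favours such genes, so nothing is read from this contrast. Without this library 65 of the 100 members were still taken by the rule, and without wild-type recovery 1 replicate 1 it was 61.

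In the wild type the median rising member had a first step of 1.12 and a second step of 1.20 on the log2 scale, and the range of the second step reached 6.99. The median falling member had steps of −1.004 and −1.11. In whole leaves, fewer cells of a type and less RNA per cell cannot be told apart. Median levels of the rising members were 4.31 CPM under irrigation, 12.99 CPM at recovery 1 and 47.3 CPM at recovery 2, and those of the falling members were 34.7, 17.8 and 5.77 CPM in the same order. The libraries of recovery 2 lay above those of irrigation without overlap in 71 of 78 rising members, against 23.0% of all genes over the minimum, and below them in 21 of 22 falling members, against 12.3%. All 3 groups lay apart in order for 14 rising and 3 falling members, against 1.40% and 0.336% of all genes. Nothing is read from these shares, since the rule used the same libraries.

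**Figure D1:**
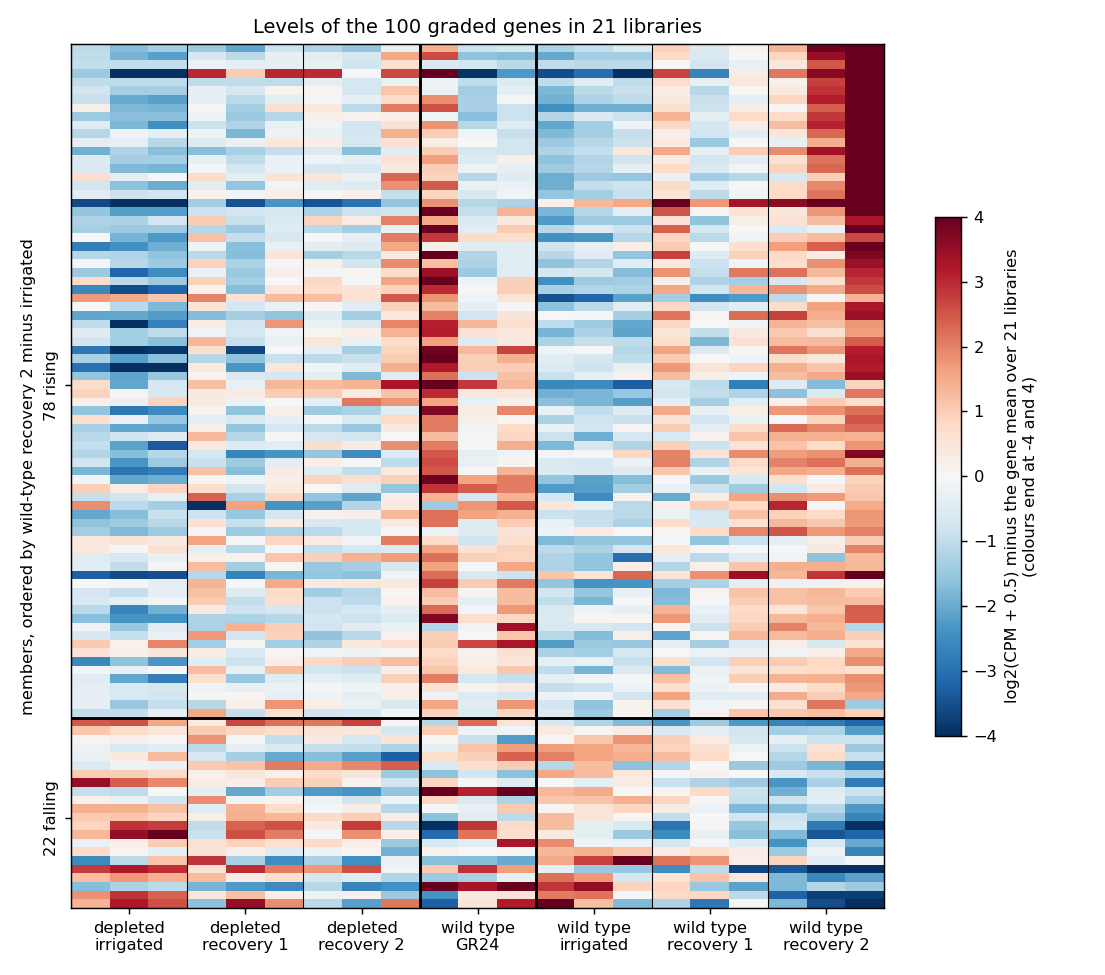
Levels of the 100 members (rows, ordered by wild-type recovery 2 minus irrigation) in 21 libraries (columns, 3 per group), as log2(CPM + 0.5) minus the mean of the gene over all libraries. Of the 78 rising members, 34 have their highest level in the last column, wild-type recovery 2 replicate 9, and 27 in the first of the 3 GR24 libraries, replicate 8.

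The rising member with the largest smaller step was Solyc08g077900.3. In the depleted line it stood at 3.53 CPM, at 0 counts (a floor of 3 counts is 0.109 CPM there) and at 0.0686 CPM under irrigation, at 89.6, 22.3 and 91.7 CPM at recovery 1, and at 87.5, 10.6 and 69.7 CPM at recovery 2. The depleted line thus showed the first step, of 5.33 on the log2 scale, and a second step of −0.28. In wild type the member stood at 0.457, 0.850 and 0.0425 CPM under irrigation, at recovery 1 at 73.2, 1.28 and 13.3 CPM, and at recovery 2 at 48.2, 140 and 256 CPM. Every recovery library lay above every irrigated one, while recovery 1 replicate 1 exceeded recovery 2 replicate 8, so the 2 recoveries overlapped.

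The next was Solyc08g062450.1. In the depleted line it averaged 1.18 ± 1.49 CPM under irrigation, 2.41 ± 1.71 CPM at recovery 1 and 5.21 ± 5.50 CPM at recovery 2 (SD, n = 3), and the 3 groups overlapped. In wild type it stood at 0.0286 to 0.255 CPM under irrigation, at 1.15 to 3.93 CPM at recovery 1 and at 2.64, 15.2 and 187 CPM at recovery 2. Its second step there, 4.41 on the log2 scale, rested mostly on replicate 9, the library at 187 CPM.

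Among falling members the largest smaller steps were those of Solyc08g074620.2 and Solyc06g005310.3. In the depleted line Solyc08g074620.2 averaged 467 ± 265 CPM under irrigation, 406 ± 453 CPM at recovery 1 and 130 ± 179 CPM at recovery 2 (SD, n = 3), with overlap throughout. In wild type it had 1344, 181 and 22.8 CPM under irrigation, 33.2, 10.4 and 79.8 CPM at recovery 1 and 22.3, 6.26 and 3.53 CPM at recovery 2. The irrigated libraries spread so widely that replicate 14, at 22.8 CPM, lay inside the range of recovery 1. Solyc06g005310.3 was not graded in the depleted line, where recovery 1 replicate 16 alone, at 70.9 CPM, exceeded the irrigated values of 1.18 to 21.2 CPM. In wild type it had 27.3, 64.0 and 160 CPM under irrigation, 43.7, 33.3 and 11.2 CPM at recovery 1 and 17.6, 6.77 and 8.71 CPM at recovery 2.

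At the limit of the list stood Solyc11g045160.2 and Solyc11g045440.1, with smaller steps of 0.777 and 0.775 on the log2 scale. Just outside it were Solyc09g007270.3, at 0.773, and Solyc06g006110.3, whose steps were −0.771 and −3.86. The members therefore shade into the remaining graded genes without a gap.

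**Figure D2:**
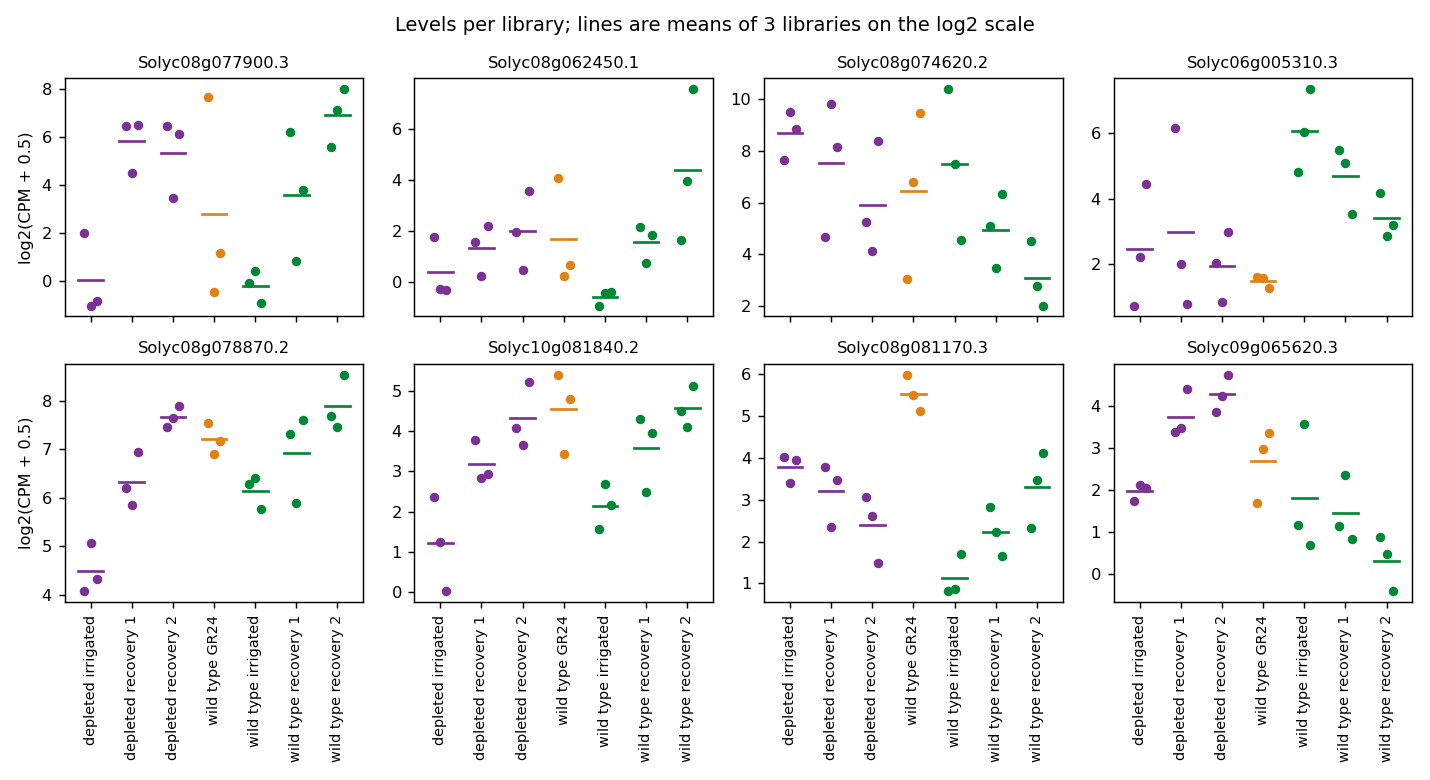
Level of 8 members in each library, as log2(CPM + 0.5), for the depleted line (purple), GR24-sprayed wild type (orange) and unsprayed wild type (green), with lines at the mean of 3 libraries. The upper row holds the 2 rising and the 2 falling members with the largest smaller steps of their direction in wild type; in the lower row the first 2 were graded alike in both genotypes and the last 2 ran the opposite way in the depleted line.

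The depleted line supplies libraries that the wild-type steps did not use, although they counted in the minimum level. There, both steps had the wild-type direction in 44 of 78 rising and 14 of 22 falling members, 58 in all. Over all 13385 genes above the minimum, both steps were upward in 18.3% and downward in 16.2%. Of the rest, 37 members followed the wild type at 1 step and 5 at neither. The count of 58 depended on 1 library: without depleted recovery 2 replicate 8 it was 36, or 27 rising and 9 falling members, against 18.2% and 15.5% of all genes. It was also 36 when the 29 members with a high wild-type recovery 2 replicate 9 were left out, now of 71.

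The steps of the depleted line were smaller than those of the wild type, on which the members were chosen for size, so the genotypes were not compared by a test. The median first step of the rising members was 0.88 on the log2 scale, against 0.27 over all genes. With TMM scaling these medians were 0.72 and 0.0035. The median second step was 0.33, against −0.13 over all genes, and it became −0.17 without recovery 2 replicate 8. From irrigation to recovery 2 the median was 1.11, against 0.13 over all genes. The falling members had medians of −0.36 and −0.60 at the 2 steps and of −0.80 for recovery 2 against irrigation. As a measure of spread, the median difference of each library from the mean log2 level of the earlier group was taken, and its SD over the 3 libraries of the more variable group. In the order of the comparisons just given, this SD was 0.40, 0.58 and 0.80 for the falling members. For the rising members it was 0.52 and 0.67 at the 2 steps and 0.52 for recovery 2 against irrigation. The second step of the rising members and the first step of the falling members were smaller than this spread, and the other falling medians were about as large as it. Recovery 2 of the depleted line averaged below recovery 2 of wild type in 69 of 78 rising members. The rule had chosen these members for a high wild-type recovery 2, so nothing is read from this count. Under irrigation the depleted line averaged above wild type in 38 of the 78. The median log2 difference was −0.09, against −0.23 over all genes. The rule had chosen these members for a low level in irrigated wild type, so nothing is read from this count either.

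**Figure D3:**
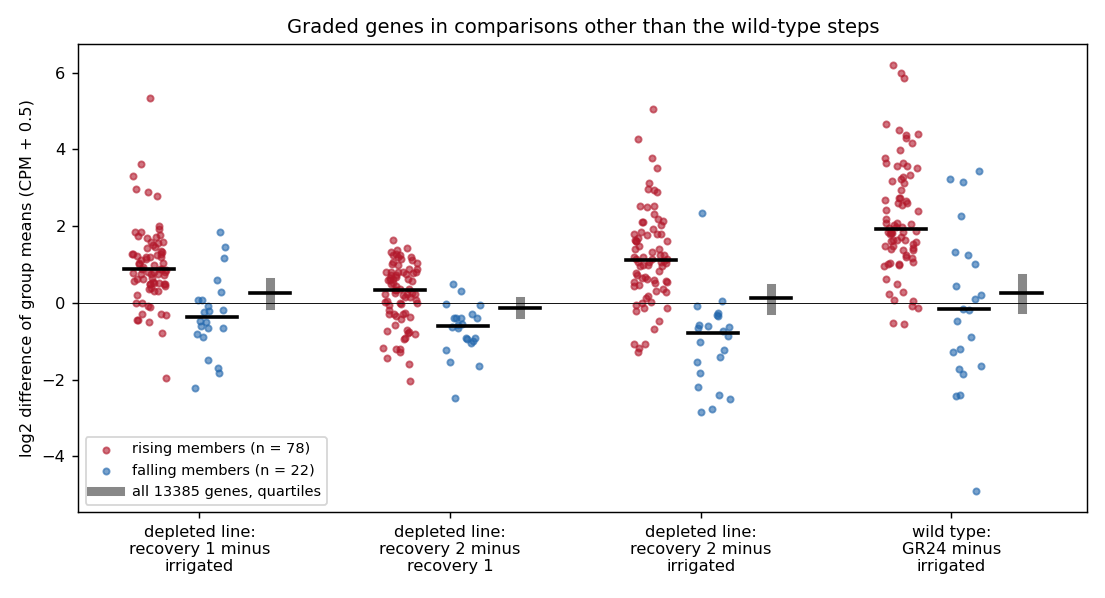
Log2 differences of group means (CPM + 0.5 on a linear scale before the log) for each rising member (red) and falling member (blue) in comparisons other than the wild-type steps; black lines are medians and grey bars the quartiles of all 13385 genes. Medians of the rising members are 0.88, 0.33, 1.11 and 1.92 from left to right, and those of the falling members are −0.36, −0.60, −0.80 and −0.17.

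All 100 members passed the filter on low counts and were tested in the depleted line within an edgeR quasi-likelihood fit of all 20373 genes. A gene was called changed at an adjusted p (Benjamini-Hochberg over all genes tested) under 0.05. Shares of all genes called refer to the genes tested, which include genes under the minimum of 5 CPM that every member met. Shares without overlap refer to the 13385 genes over that minimum. At recovery 2 against irrigation, 11 of 78 rising members were higher, or 14.1%, where 4.35% of all genes were called higher. Of the 22 falling members 4 were lower, or 18.2%, where 6.04% of all genes were called lower, and no member was called against its wild-type direction. The 15 called members are to be read against 10.4% of all genes called in either direction. The libraries of recovery 2 lay above those of irrigation without overlap in 37 of 78 rising members, or 47.4%, against 22.6% of all genes, and below them in 9 of 22 falling members, or 40.9%, against 12.5%. The count depended on the libraries: without recovery 2 replicate 8 it was 6, near the 5.93% of all genes called in that fit, and without irrigated replicate 6 it was 7, against 4.79%. With the 9 depleted libraries fitted alone it was 23, against 5.25%.

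At recovery 1 against irrigation 8 members were called, near the 8.41% of all genes called there. Of these, 5 rising members were higher (2.83% of all genes), 2 falling members were lower (5.58% of all genes) and 1 rising member was lower. The count was 1 without recovery 1 replicate 16 or without irrigated replicate 7, where 3.53% and 3.20% of all genes were called. It was 2 without recovery 1 replicate 12 or irrigated replicate 6, where 4.04% and 3.60% were called. Libraries lay above those of irrigation in 22 of 78 rising members, or 28.2%, against 22.3% of all genes, and below them in 5 of 22 falling members, against 8.33%. The second step itself was not detected for any member: edgeR called 0 members, with 0% of all genes called, and limma and DESeq2 also called 0 members. At an unadjusted p under 0.05 stood 8 members, against 8.58% of all genes.

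The called members with the largest changes at recovery 2 were Solyc01g095930.3 and Solyc10g075090.2. Solyc01g095930.3 stood at 8.43, 4.17 and 21.3 CPM at recovery 2 of the depleted line, against 1.09, 0.182 and 0.309 CPM under irrigation, or 4.36 ± 1.10 as a log2 ratio with its SE (adjusted p = 0.0185, edgeR). Every recovery 2 library lay above the irrigated ones, yet the call was lost in 3 of 6 fits that each left out 1 library, and the adjusted p reached 0.226 among all alternatives run. Solyc10g075090.2 stood at 175, 145 and 540 CPM at recovery 2, against 24.4, 7.76 and 11.5 CPM under irrigation, for an edgeR log2 ratio of 4.22 ± 0.83 (SE; its adjusted p was 0.00438), and kept its call in all 6 such fits. At recovery 1 of the depleted line it stood at 249, 39.0 and 266 CPM, a difference from irrigation that edgeR put at 3.38 ± 0.80 in log2 units (SE; adjusted p = 0.0149), and that call was kept in 2 of 6 fits. In the wild type the same locus averaged 134 ± 24.7, 430 ± 201 and 909 ± 753 CPM from irrigation to recovery 2 (SD, n = 3).

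At recovery 1, Solyc03g111100.1 had the next largest rise after Solyc10g075090.2 among called members whose libraries did not overlap. It stood at 25.3, 6.55 and 30.9 CPM at recovery 1 of the depleted line, against 3.32, 1.38 and 2.02 CPM under irrigation, or 2.93 ± 0.71 as a log2 ratio with its SE (adjusted p = 0.0165, edgeR), kept in 2 of 6 fits. In wild type it averaged 9.04 ± 0.445 CPM under irrigation, 45.1 ± 27.9 CPM at recovery 1 and 93.6 ± 38.7 CPM at recovery 2 (SD, n = 3).

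Of the falling members, Solyc08g079870.2 stood at 3.17, 2.14 and 0.746 CPM at recovery 2 of the depleted line, against 9.46, 14.7 and 28.3 CPM under irrigation, for an edgeR log2 ratio of −3.25 ± 0.65 (SE; its adjusted p was 0.00494). Solyc07g052480.3 stood at 33.1, 42.6 and 13.3 CPM there, against 135, 282 and 196 CPM under irrigation, a difference that edgeR put at −2.94 ± 0.75 in log2 units (SE; adjusted p = 0.0202), and lost its call in 3 of 6 fits. Solyc03g121420.3 fell already at recovery 1, to 8.08, 7.80 and 13.5 CPM, against 78.4, 37.6 and 26.0 CPM under irrigation, or −2.51 ± 0.50 as a log2 ratio with its SE (adjusted p = 0.00540, edgeR). It was the only member whose call at recovery 1 was kept in all 6 fits. This locus met the minimum of 5 CPM over the 21 libraries only through the depleted line, where irrigation averaged 47.4 CPM. Its fall there is therefore tied to the filter, and nothing is read from it. A rising member moved the other way: Solyc01g080020.2 fell to 1.15, 3.92 and 1.14 CPM at recovery 1 of the depleted line, against 8.20, 4.33 and 15.8 CPM under irrigation, for an edgeR log2 ratio of −2.40 ± 0.72 (SE; its adjusted p was 0.0480), kept in 2 of 6 fits.

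Of the members graded alike in both genotypes, Solyc08g078870.2 had the largest smaller step in the depleted line. In the depleted line it stood at 16.4, 33.1 and 19.7 CPM under irrigation, at 73.2, 57.3 and 123 CPM at recovery 1 and at 175, 199 and 237 CPM at recovery 2. The 3 groups lay apart in order, as they did in 3 rising members and 1 falling member, against 0.381% and 0.740% of all genes. Its log2 fold change at recovery 2 against irrigation was 2.99 ± 0.45 (SE, edgeR adjusted p = 0.000962), called in all 6 fits that left out a library. In wild type it averaged 71.9 ± 15.8, 137 ± 70.1 and 250 ± 106 CPM (SD, n = 3), with recovery 1 replicate 13 inside the irrigated range at 59.0 CPM. Solyc10g081840.2 averaged 2.35 ± 2.12, 9.01 ± 3.66 and 21.9 ± 13.4 CPM in the depleted line and 4.13 ± 1.77, 13.1 ± 7.26 and 24.6 ± 9.09 CPM in wild type (SD, n = 3). Its change at recovery 2 of the depleted line was also called (log2 fold change 3.16 ± 0.68, SE, edgeR adjusted p = 0.00795).

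Grading ran the opposite way in Solyc08g081170.3 and Solyc09g065620.3. Solyc08g081170.3 averaged 13.6 ± 3.16, 9.48 ± 4.47 and 5.27 ± 2.79 CPM from irrigation to recovery 2 in the depleted line, and 1.78 ± 0.852, 4.47 ± 2.00 and 10.7 ± 6.22 CPM in wild type (SD, n = 3). Solyc09g065620.3 averaged 3.43 ± 0.542, 13.6 ± 6.03 and 19.4 ± 6.16 CPM in the depleted line, and 4.73 ± 5.73, 2.53 ± 1.79 and 0.831 ± 0.541 CPM in wild type (SD, n = 3). Neither change at recovery 2 of the depleted line passed the threshold, with log2 fold changes of −1.47 and 2.36 and edgeR adjusted p of 0.0594 and 0.0543. Solyc09g065620.3 met the minimum of 5 CPM over the 21 libraries only through the depleted line. Its rise there is therefore tied to the filter, and nothing is read from it.

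GR24 was compared with the same irrigated wild-type libraries from which the first step was computed, so its values are given without a test. In sprayed leaves 74 of 78 rising members averaged above irrigated wild type, against 66.6% of all genes, and the median log2 difference was 1.92, against 0.25 over all genes. With TMM scaling these medians were 1.66 and 0.024. The sprayed mean passed the recovery 1 mean in 66 rising members and the recovery 2 mean in 25. The rule had used both recovery means and no share over all genes was computed, so nothing is read from these counts. Sprayed libraries lay above irrigated ones without overlap in 44 of 78 rising members, against 28.8% of all genes, and below them in 5 of 22 falling members, against 13.3%. The falling members were divided, with 12 averaging below and 10 above irrigated wild type, where 33.4% of all genes averaged below. Their median difference was −0.17, against 0.25 over all genes, and with TMM scaling −0.42, against 0.024. The falling members had been chosen for a high irrigated level and the rising members for a low one. Nothing is therefore read from the lean of either set after the spray.

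Replicates of the spray differed strongly. Of the rising members 71 of 78 were highest in GR24 replicate 8, without which the median difference was 1.16. Solyc10g078770.2 had the largest difference among members without overlap, 5.995 on the log2 scale, yet stood at 147, 0.513 and 2.31 CPM after the spray, against 0.143, 0.472 and 0.255 CPM in irrigated wild type, so that replicate 8 alone set its size. This locus met the minimum of 5 CPM over the 21 libraries only through the sprayed group, at a mean of 49.9 CPM. Nothing is read from its rank. Solyc09g082810.3 was high in each sprayed library, at 2366, 1044 and 363 CPM, against 24.1, 24.6 and 14.5 CPM in irrigated wild type, a log2 difference of 5.86. In the depleted line its means were also graded, at 124 ± 110, 276 ± 136 and 720 ± 613 CPM (SD, n = 3), where every recovery 2 library lay above the irrigated ones and recovery 1 overlapped both. Solyc06g005310.3 was evenly low after the spray, at 1.95 to 2.54 CPM, against 27.3, 64.0 and 160 CPM, a log2 difference of −4.90. Solyc05g056520.3 stood at 13.9, 25.6 and 13.6 CPM in sprayed leaves, against 127, 103 and 58.0 CPM, a log2 difference of −2.41.

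**Figure D4:**
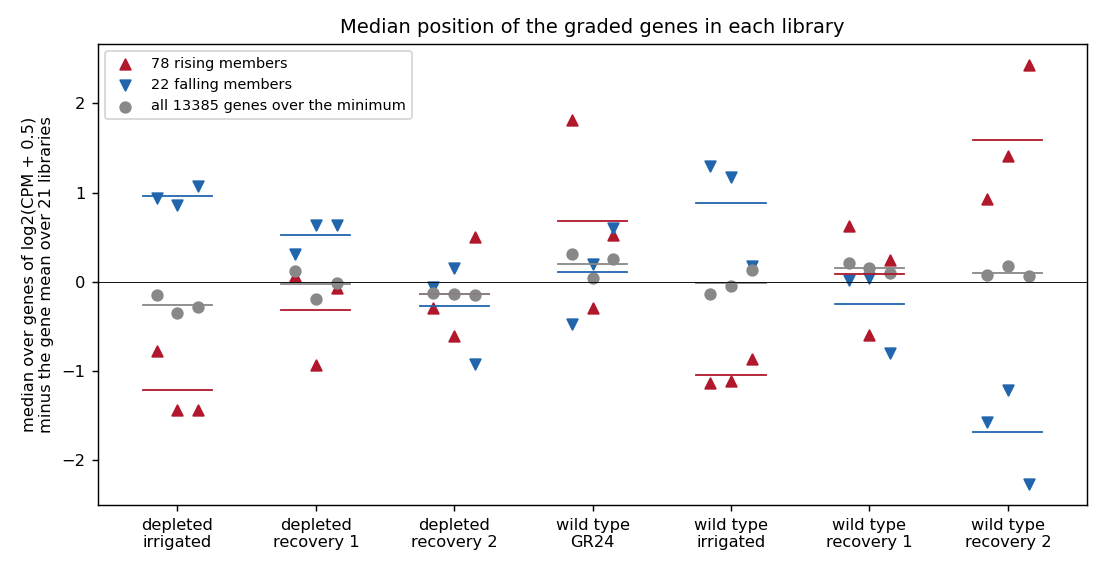
Median over the members of log2(CPM + 0.5) minus each gene's mean over 21 libraries, 1 point per library and lines at the mean of 3, for rising members (red), falling members (blue) and all genes over the minimum (grey). Rising members run from a lowest value of −1.43 in depleted irrigated libraries to 2.43 in wild-type recovery 2 replicate 9, and GR24 replicate 8 stands at 1.82 while its 2 partners stand at −0.30 and 0.53.

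The rising members moved together not only between groups but between libraries of 1 group. At recovery 2 of the depleted line, 70 of 78 were highest in replicate 8, against 36.7% of all genes. In the GR24 group 71 were highest in replicate 8, against 46.7% of all genes. Neither group entered the wild-type steps, although both counted in the minimum level. Both libraries held the highest value for 64 of 78 rising members, or 82.1%, against 17.5% of all genes. Both joint shares are about what the separate shares give on their own, so no link between the 2 libraries is read from them. In the wild type 63 were highest in recovery 2 replicate 9 and 61 in recovery 1 replicate 1, against 26.8% and 47.8% of all genes, but the rule used both libraries, and nothing is read from these counts. Of the 22 falling members 14 were lowest in depleted recovery 2 replicate 8, against 41.5% of all genes, and 12 in GR24 replicate 8, against 24.8%.

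The median rising member in depleted recovery 2 replicate 8 lay 1.05 above the mean of the other 2 libraries on the log2 scale, against −0.03 over all genes, and in GR24 replicate 8 it lay 1.65 above, against 0.12. Within groups, the SD of log2 levels of a median rising member was 0.69 at depleted recovery 2 and 1.19 after GR24, against 0.20 and 0.30 for a median gene. For falling members it was 0.83 and 0.92. The labels do not say whether these libraries share anything. The part of this spread in the results above was not tested beyond the values without each library.

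**Figure D5:**
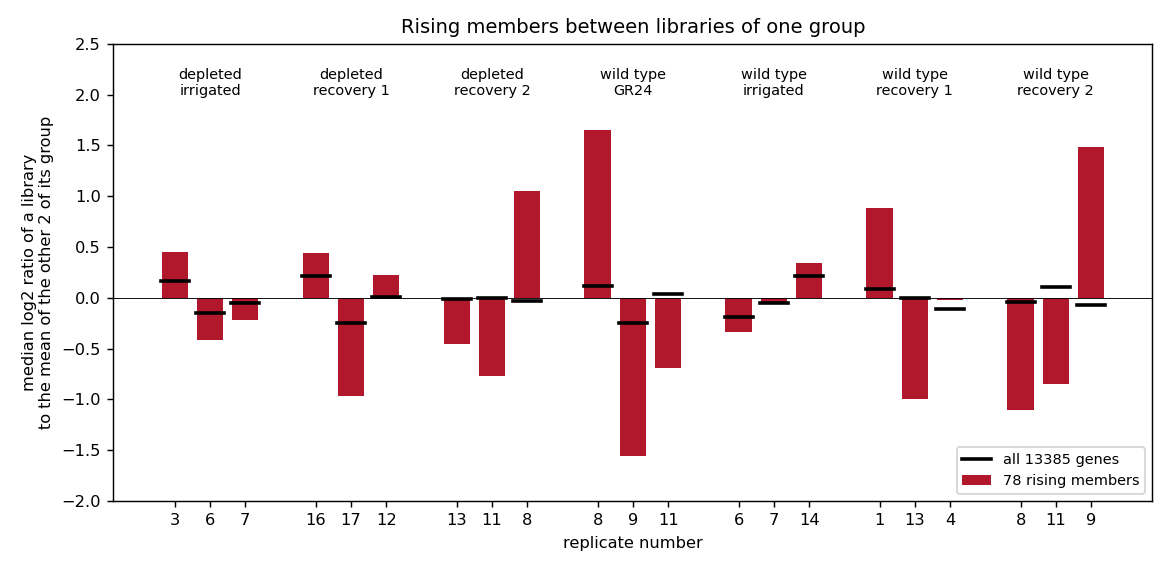
For each library, the median over 78 rising members of its log2 ratio to the mean of the other 2 libraries of its group (bars), and the same over all 13385 genes (black lines). The bars reach 1.05 in depleted recovery 2 replicate 8, 1.65 in GR24 replicate 8, 0.89 in wild-type recovery 1 replicate 1 and 1.49 in wild-type recovery 2 replicate 9, while the lines stay between −0.25 and 0.21.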

How the data were processed

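Per the submitters' processing notes, reads were processed with HISAT2, an aligner, and HTSeq, a counter; their versions and the build were not given in the sources used here. Per the labels' protocols, paired-end libraries were made with a NEBNext Ultra kit, which does not mark strand, so overlapping antisense genes, and close paralogs, are uncertain. The deposited table holds the authors' raw counts per gene for 35039 IDs. A further 6 columns match no labelled sample and were not used. Of the IDs, 0 matched the RefSeq gene table (SLM_r2.1), so planned gene lists were not run.

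CPM used the library total. Steps used group means and 0.5 CPM. Tests used edgeR 4.0.16 in R 4.3.3 (filterByExpr, TMM, robust quasi-likelihood fit of all 21 libraries, 1 mean per group; SE from the fold change and F), tested on simulated data. DESeq2 1.42.0 and limma 3.58.1 (voom) were alternatives. Replicate pairs differed by 28.9 to 334 in chi-square per degree of freedom, so none was merged. Floors cover counting error only, while the SDs and SEs include the spread between libraries.

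IDs were named by rule: the 2 largest and 2 smallest per comparison, for called changes and GR24 only without overlap of libraries. The members, lists and rules were chosen with earlier results of these data known. A planned reading of each left-out wild-type library against members chosen again without it is not given, since its yardsticks were group means that the choice had used.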

Additional observations from a re-analysis of the deposited data

Results flagged for a closer look

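In 3 rising members all 3 libraries of recovery 2 lay below all irrigated libraries in the depleted line and above them in wild type. The 3 members were Solyc08g081170.3, with a log2 difference of −1.29 in the depleted line and 2.29 in wild type, Solyc01g106210.3, with −0.48 and 1.80, and Solyc07g047790.3, with −1.07 and 2.02. In the depleted line recovery 2 lay below irrigation without overlap in 12.5% of all genes over the minimum, so 3 of 78 members is a share under the background. Solyc01g080020.2 showed the same at recovery 1, with −1.95 in the depleted line and 1.04 in wild type. There 8.33% of all genes lay lower without overlap in the depleted line. The difference between the genotypes was not tested, because the wild-type values had chosen the members.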

How the results depend on the processing

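No paired analysis was possible because the groups compared in the depleted line share no replicate numbers. Of the 100 members, the rule took 61 to 88 again without 1 wild-type library, 75 to 97 under the pseudocount, CPM minimum and TMM alternatives, and 53 with group medians in place of means, an alternative chosen after seeing the data. The 58 members graded alike in both genotypes were 36 to 61 without 1 library, the lowest without depleted recovery 2 replicate 8, and 36 without the 29 members high in wild-type recovery 2 replicate 9. At recovery 1 of the depleted line the 8 calls stood against 8.41% of all genes. Without 1 library they were 1 to 11, against 3.20% to 12.2% of all genes. They were 14 with DESeq2 (13.7% of all genes), 5 with limma (7.74%) and 5 without the low-count filter (5.52%). With the depleted libraries alone they were 5 (3.51%). With members re-chosen without wild-type recovery 2 replicate 9 they were also 5, in the main fit. At recovery 2 the 15 calls stood against 10.4% of all genes. Without 1 library they were 6 to 17, against 4.53% to 12.9% of all genes. They were 30 with DESeq2 (15.4% of all genes) and 23 with the depleted libraries alone (5.25%). Of the 15, 6 were kept in every fit that left out 1 library. Between the recoveries every setting run gave 0 members, with at most 0.123% of all genes called. No called member changed direction in any fit run. The median second step of the rising members in the depleted line ranged from −0.17 to 0.60 without 1 library. The median GR24 difference of the falling members ranged from −0.90 to 0.051 without 1 library. All other medians kept their sign. The cause was not tested.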

Other observations

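The members lay on all 12 numbered chromosomes. Chromosome 8 held 11 of them, 1.10% of its genes over the minimum, and chromosomes 11 and 12 held 3 each, 0.336% and 0.338%. All 13 members on chromosome 1 rose, and 6 of the 11 on chromosome 8 fell. In 15 members another member lay within 200 units of ID number, and 12.0% of the other genes over the minimum had a member that close. These formed 9 pairs, all of 1 direction in wild type. In 7 of the 9 pairs both loci also moved alike at recovery 2 of the depleted line, and in 7 pairs after GR24. Among single members, 67 of 78 rising and 20 of 22 falling ones kept the wild-type direction at recovery 2 of the depleted line. After GR24 it was 74 of 78 and 12 of 22. Some loci on chromosome 8 belonged to more than 1 pair, so the pairs are not all separate cases, and nothing is read from them. On chromosome 10, Solyc10g075090.2 and Solyc10g075110.2 differed from irrigation by 4.25 and 2.93 on the log2 scale at recovery 2 of the depleted line, and by 2.67 and 3.52 after GR24.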
